A study of Homo sapiens with 16 samples.

Results

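The comparison described here is UNC0638 against DMSO in the myeloma line RPMI-8226, set by its title and samples before any value was read. It compared 4 of the 16 arrays in the series, 2 labelled RPMI-8226_UNC0638 and 2 labelled RPMI-8226_DMSO. The spread for the tests was taken from all 8 RPMI-8226 arrays, and with only the 4 arrays in the fit 70 probes were called higher and none lower. The series profiled RPMI-8226 and a second myeloma line, MM.1S, after DMSO, the EZH2 inhibitor GSK126, the G9a inhibitor UNC0638 or both inhibitors, on one-color Agilent arrays. Each inhibitor was used at 1 µM for 6 days, and the control cells received DMSO. The paper calls the replicates biological. Neither it nor the labels say whether the cells of a group were grown and treated apart, so the p-values measure only the spread between arrays.

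G9a, encoded by EHMT2, works as a pair with the related enzyme encoded by EHMT1 and places mono- and dimethyl marks on lysine 9 of histone H3. These marks are found at silenced genes. UNC0638 occupies the substrate site of both enzymes and blocks their catalytic activity without removing the proteins.

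The 4 arrays were of similar brightness. Between 47.1 and 48.1% of spots were well above background on each, and the replicate correlation across probes was 0.9866 for DMSO and 0.9932 for UNC0638. RPMI-8226 and MM.1S were each on 1 slide, so cell line and slide cannot be told apart. On the RPMI-8226 slide the arrays of 1 treatment shared a column and the arrays of 1 replicate number shared a row. A treatment and its column therefore cannot be told apart either.

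Plasma cell markers fitted the label. The syndecan SDC1 read 5.22 and 4.99 with DMSO and 4.89 and 4.87 with UNC0638, in log2 units relative to each array's 75th percentile. The secretory pathway factor XBP1 read 6.38 and 6.47 with DMSO and 6.34 and 6.42 with UNC0638, and TNFRSF17, IRF4 and PRDM1 were also well above background on all 4 arrays. Of the 20 plasma cell markers, 18 were well above background on both DMSO arrays and 19 on both UNC0638 arrays. PAX5 of B cells, CD247 of T cells, MPO of myeloid cells, HBB and ALAS2 of red cells and COL1A2 of stroma were not well above background on any of the 4 arrays. The epithelial genes EPCAM and KRT18 and the T cell gene CD8B were bright on all 4.

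Among 22144 probes tested, 134 rose (0.605%) and 22 fell (0.0993%) with UNC0638 at an adjusted p under 0.05. A probe is called below when it passed this test. With the replicate number as a block in the fit, 343 were called higher and 140 lower. With no test, 514 probes (2.32%) were past 2-fold higher and 206 (0.93%) past 2-fold lower. At 1 probe per gene, 94 of 14047 genes were called higher (0.669%) and 16 lower (0.114%). Most probes differed little: the median difference was -0.04 and 88.0% lay within 0.5 of 0 in log2.

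**Figure D1:**
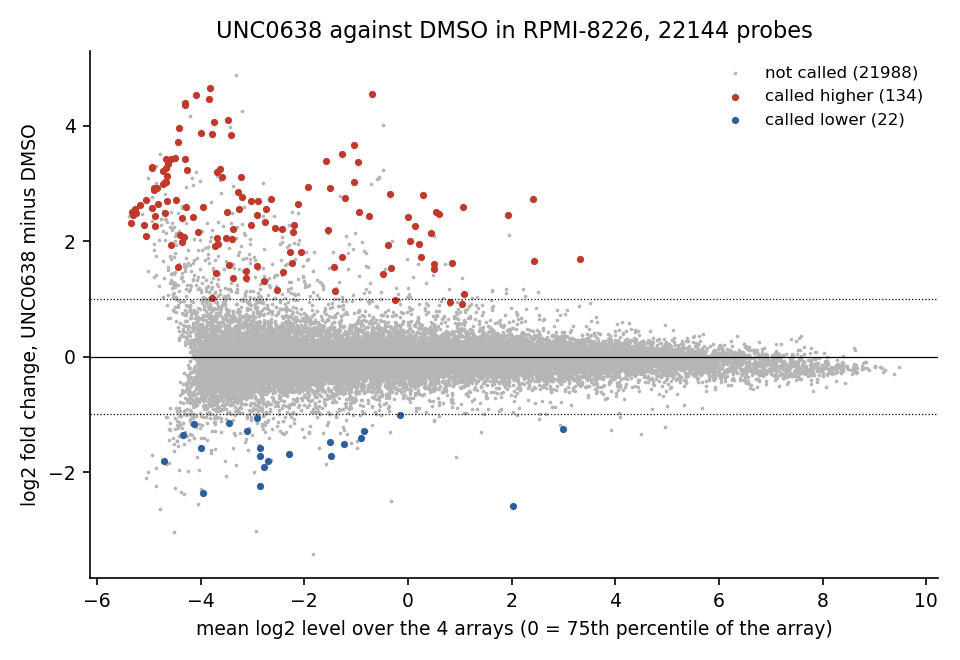
Log2 difference between UNC0638 and DMSO (vertical) against mean log2 level over the 4 arrays (horizontal) for each probe tested, with called probes in red (higher) and blue (lower) and dotted lines at 2-fold. The 134 called higher outnumber the 22 called lower.

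Many of the called rises were of probes not detected in control cells. The filter kept such probes only where both UNC0638 arrays were well above background, so it set their direction. There were 299 of them among the probes tested, and 142 that were not well above background on either UNC0638 array. Of the 134 probes, 68 were not well above background on either DMSO array, 13 were so on only 1 of the 2, and 53 were well above background on both. Those 53 differed by 0.92 to 4.56 log2, with a median of 2.15. For the 68, a fold is given only as a lower bound. It sets the mean of the UNC0638 arrays against the mean of the DMSO arrays with each DMSO array put at its lowest well-above signal where its own signal was under that. These bounds had a median of 2.48-fold and reached 7.34-fold. Among the 22 falls, 5 probes were not well above background on either UNC0638 array, and the log2 differences ran from -2.59 to -1.01 with a median of -1.55.

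The RNA of the drug's target was unmoved. EHMT2 read 1.27 and 0.91 with DMSO and 1.01 and 0.99 with UNC0638, a difference of -0.09 within the spread of the DMSO arrays (adjusted p = 0.945). EHMT1 differed by -0.06 and the H3K27 methyltransferase EZH2 by -0.20, and neither was called. None of 20 genes for H3K9 methylation writers and their partners, 11 H3K9 demethylase genes and 11 PRC2 genes was called by limma, beside 0.783% of all genes, so few calls would be seen in lists of this size. At an unadjusted p under 0.05 there were 2145 of 22144 probes. The list medians were -0.01, -0.14 and -0.06, beside -0.01 over all genes. Their brightest members, CBX3, TRIM28, KDM4B, KDM3B, RBBP7 and PHF19, differed by -0.19 to -0.01.

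Among called probes well above background on all 4 arrays, the largest rise was in CD3G, a signaling chain of the T cell receptor complex. Its probe read -2.51 and -3.44 with DMSO and 1.75 and 1.42 with UNC0638. The gap between the groups was several times the spread within either, and the difference was 4.56 (SE 0.33, adjusted p = 0.00467), or 23.5-fold. The neighboring chain CD3D moved from -2.59 and -2.70 to -0.35 and -0.56, again without overlap, for a difference of 2.19 (adjusted p = 0.0347). CD3E was not well above background with DMSO, at -6.67 and -5.92, and read -2.68 and -3.24 with UNC0638, at least 2.52-fold higher (adjusted p = 0.0179). CD247, the chain encoded elsewhere, stayed under background on all 4 arrays. CD2, another T cell surface protein, read -4.16 and -2.22 with DMSO and -1.44 and -1 with UNC0638 and was not called.

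CD3G, CD3D and CD3E lie side by side at chr11:118186314-118223990 (hg19), a stretch looked at after the values were seen. The 19 other probes within 300 kb, for genes such as MPZL2, MPZL3, UBE4A, ATP5L, MLL and ARCN1, differed by -0.74 to 0.78 with a median of -0.03, and none was called. The promoter of CD3D, from the RefSeq gene starts (chr11:118342656-118342955, GRCh38.p14, minus strand), is printed for this cluster with its CG pairs in capitals. It holds 5, and 34.4% of 27305 promoters of the same 300 bases hold as few.
CD3D promoter: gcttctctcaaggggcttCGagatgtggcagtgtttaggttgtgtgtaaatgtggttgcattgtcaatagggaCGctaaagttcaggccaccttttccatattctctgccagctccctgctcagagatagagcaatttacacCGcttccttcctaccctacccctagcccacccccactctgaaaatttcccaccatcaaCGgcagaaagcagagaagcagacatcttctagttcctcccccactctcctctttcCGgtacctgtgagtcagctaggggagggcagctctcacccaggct

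**Figure D2:**
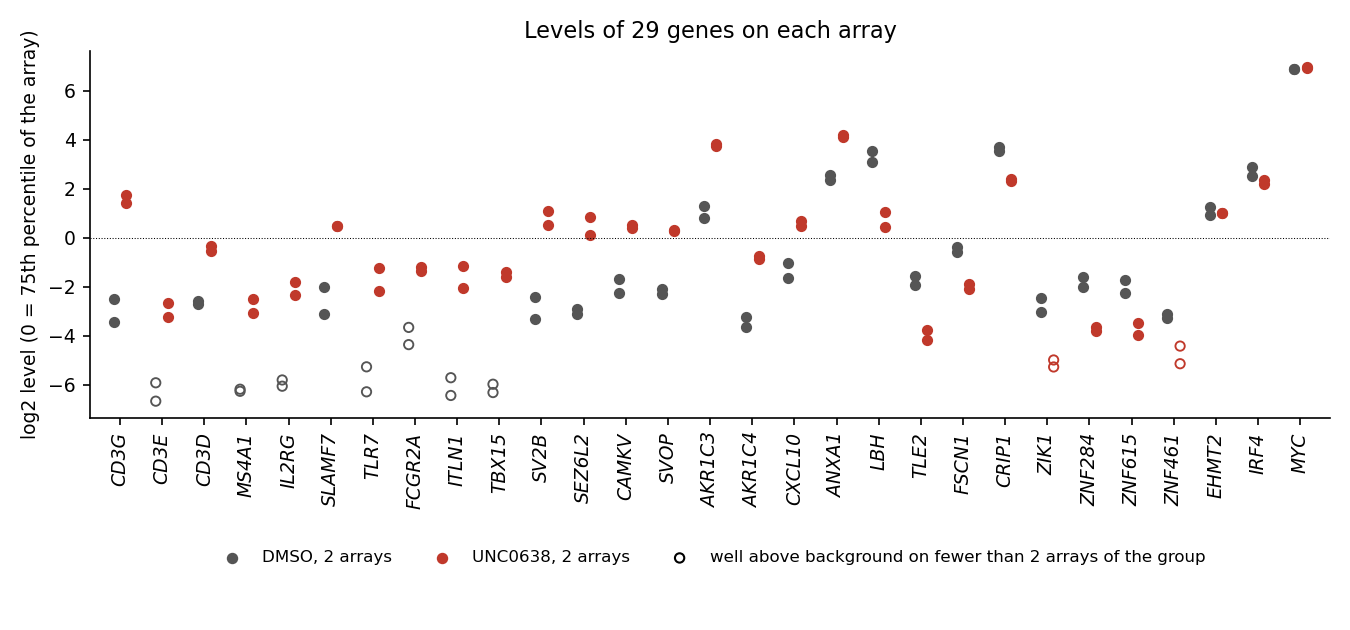
Log2 level of 29 genes (horizontal axis) on each array, DMSO in grey and UNC0638 in red, open where fewer than 2 arrays of the group were well above background. For CD3G the DMSO arrays lie at -2.51 and -3.44 and the UNC0638 arrays at 1.75 and 1.42.

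Single genes of other blood lineages rose. IL2RG, the receptor chain shared by several interleukins, had 2 probes called. The brighter read -1.79 and -1.72 with DMSO and 0.94 and 1.18 with UNC0638, a difference of 2.81 (adjusted p = 0.00226), and the dimmer was at least 4.69-fold higher. CXorf65, its neighbor on the X chromosome, was called too, whereas FOXO4 (-0.17) and MED12 (0.22) beside them were not. These neighbors were named after the values were seen. MS4A1, which encodes the B cell antigen CD20, went from -6.27 and -6.18 to -2.49 and -3.06, at least 2.87-fold higher (adjusted p = 0.0179). The IgG receptor FCGR2A had 2 probes called, and the one well above background on all 4 arrays read -3.26 and -3.32 with DMSO and -1.43 and -0.84 with UNC0638 (2.15, adjusted p = 0.0245). HBD, the delta globin gene, was at least 1.36-fold higher, and the natural killer receptor KIR2DS2 at least 4.57-fold. MS4A1, HBD and KIR2DS2 were kept only through the UNC0638 arrays, so the filter set their direction. With normexp background correction limma called none of them (adjusted p = 0.537, 0.68 and 0.465). KIR2DS2 was not called with quantile normalization either (adjusted p = 0.054).

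By list, 3 of 17 T and NK cell markers were called higher, 1 of 11 B cell markers, 1 of 16 myeloid markers and 1 of 7 erythroid markers, beside 94 of 14047 genes (0.669%). Of these, CD3E, MS4A1 and HBD passed the filter only through the UNC0638 arrays. Their direction was thus set by the filter, and no conclusion on a list is drawn from them. With the replicate number as a block, 2 of the B cell markers and 3 of the myeloid markers were called higher, beside 242 of 14047 genes (1.72%). The medians of these 4 lists were 0.18, 0.37, 0.30 and -0.30, and over 12 alternatives the first 3 came down to 0.00, 0.01 and 0.01. Past 2-fold higher were 41.2, 18.2, 18.8 and 14.3%, beside 2.4% of all genes. Past 2-fold lower were 5.88, 0, 6.25 and 0%, beside 0.854%. None of 8 stromal and epithelial markers was called (median -0.32), and EPCAM and KRT18 differed by -0.34 and -0.31. Summed over the list, scaled intensity of the T and NK markers was 206 and 184 with DMSO and 167 and 175 with UNC0638, lower on both. Such a sum follows the brightest member, here CD8B, while 35.3% of the T and NK genes were below 0. The B cell markers summed to 6.78 and 9.22 with DMSO and 8.03 and 11.6 with UNC0638, with the groups overlapping. The myeloid markers were higher on both UNC0638 arrays, at 25.4 and 36.8 with DMSO and 40.9 and 51.1 with UNC0638. The erythroid markers were lower on both, at 9.03 and 9.61 with DMSO and 4.81 and 5.70 with UNC0638, and so were the stromal and epithelial markers, at 97.6 and 82.1 against 74.2 and 71.3. These sums were not tested. In bulk RNA, a change in the number of cells expressing a gene and a change in RNA per cell cannot be told apart.

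Among plasma cell markers 1 of 19 was called higher (5.26%, beside 0.669% of all genes), the surface receptor SLAMF7, which is an antibody target in myeloma. It read -3.10 and -2.02 with DMSO and 0.46 and 0.47 with UNC0638, so the lower UNC0638 array was still above the higher DMSO array by more than the DMSO spread (3.03, adjusted p = 0.0343). In the list, 78.9% of genes were below 0, beside 52% of all genes, with a median of -0.23 and 1 gene past 2-fold lower. Summed scaled intensity was 948 and 1027 with DMSO and 829 and 907 with UNC0638, which was not tested. CD38, named after its values were seen, read 3.01 and 4.04 with DMSO and 1.68 and 2.99 with UNC0638. Its difference of -1.19 was not called (adjusted p = 0.686) unless the replicate number was a block in the fit.

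SLAMF7 sits near the intelectin genes at chr1:160724402-160915027 (hg19), and 3 genes of that stretch were called. ITLN1, a lectin for microbial sugars, read -5.72 and -6.44 with DMSO and -1.15 and -2.06 with UNC0638, at least 6.44-fold higher (adjusted p = 0.01). ITLN2 was at least 1.79-fold higher. The genes between and around them did not all follow. CD48 differed by 0.24 and F11R by -0.03, while the 2 probes of LY9 gave 0.25 and 1.69, none called. PVRL4 was not well above background on either DMSO array, at -5.44 and -6.01. It read -2.78 and -2.47 with UNC0638 but was not called (adjusted p = 0.0594). This stretch was picked after the values were seen.

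Neuronal and synaptic genes made up the list with the most calls among rises, 5 of 23 kept (8 with the replicate number as a block), with 8 past 2-fold and none past 2-fold lower. These are 21.7% called, 34.8% with the block and 34.8% past 2-fold, beside 0.669, 1.72 and 2.4% of all genes. Like all lists here, this one was chosen with earlier results of these data known, so its shares are no independent support. For 2 of the 23 genes neither array of 1 group was well above background, so the filter set their direction. The 5 called genes named below were well above background on all 4 arrays. SV2B, a glycoprotein of synaptic vesicles, read -2.41 and -3.32 with DMSO and 1.09 and 0.51 with UNC0638. Its groups were further apart than either pair of replicates (3.66, SE 0.40, adjusted p = 0.0178). SEZ6L2, a membrane protein of neurons, went from -2.92 and -3.12 to 0.85 and 0.13 (3.51, adjusted p = 0.0179). The related vesicle transporter SVOP rose by 2.51 on a probe at -2.30 and -2.11 in DMSO, and both of its probes were called. CAMKV, a kinase-like vesicle protein, rose by 2.43, and SCAMP5, a secretory carrier membrane protein, by 1.82. The list's median was 0.42, and it ran from 0.09 to 0.75 over 12 alternatives.

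Single genes for enzymes and carriers known from other tissues rose. MAT1A, which makes S-adenosylmethionine in liver, read -3.07 and -3.47 with DMSO and 0.26 and -0.01 with UNC0638. Its groups were further apart than either pair of replicates (3.40, SE 0.26, adjusted p = 0.00508). GLYATL1, an acyltransferase, was already at -0.97 and -1.27 in control cells and reached 1.82 and 1.57. FABP6, the bile acid carrier of the ileum, rose from -0.60 and 0.13 to 2.21 and 2.52. SLC5A11, an inositol transporter, went from -5.46 and -5.05 to -2.14 and -1.87, at least 4.89-fold higher (adjusted p = 0.00374). The uncharacterized LOC100505495 behaved alike, at -2.65 and -2.55 with DMSO and 0.30 and 0.01 with UNC0638.

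Among the aldo-keto reductases of chromosome 10, 3 neighboring genes rose, a stretch noted after the values were read (chr10:5147789-5246455, hg19). AKR1C3, which reduces steroids and prostaglandins, read 1.30 and 0.80 with DMSO and 3.74 and 3.81 with UNC0638. The gap was about 5 times the DMSO spread (2.73, SE 0.36, adjusted p = 0.0305). AKR1C4 went from -3.25 and -3.65 to -0.87 and -0.74 (2.65, adjusted p = 0.032) and AKR1CL1 from -2.69 and -3.22 to -0.34 and 0.25 (2.92, adjusted p = 0.0343). The 2 kept probes of AKR1C1 differed by 3.23 and 2.79 but were not called (adjusted p = 0.061 and 0.07) unless the replicate number was a block in the fit. NET1, next to the cluster, differed by 0.03 and 0.11. In the whole list of AKR1C and NRF2 target genes, 4 of 30 were called higher with the block (13.3%, beside 1.72% of all genes). Without the block 3 of 30 were called higher (10%, beside 0.669%), and the median was -0.01. The other call was GSTA4, a glutathione transferase encoded elsewhere, at 0.51 and 0.57 with DMSO and 1.65 and 1.61 with UNC0638 (1.09, adjusted p = 0.0343).

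The reductases are close paralogs, so the probes themselves are printed. The AKR1C4 probe (chr10:5246396-5246455, hg19, plus strand) and a second probe of AKR1CL1 (chr10:5203820-5203879, hg19, minus strand) share 44 of 60 bases, with the 16 that differ in capitals. The AKR1CL1 member of this pair was not well above background on any array, at -6.71 and -6.43 with DMSO and -6.70 and -6.62 with UNC0638, while its aligned AKR1C4 partner rose. A further AKR1C4 probe that shares 29 bases with the first, then runs on across 1323 bases of genome, was also not well above background on any array. Whether paralogs bind each other's probes was not tested.
AKR1C4 probe: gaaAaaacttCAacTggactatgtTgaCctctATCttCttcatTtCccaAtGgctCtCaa
AKR1CL1 probe: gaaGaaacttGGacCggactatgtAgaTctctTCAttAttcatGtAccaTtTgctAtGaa

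The AKR1C3 promoter is printed as the one with the fewest CG pairs among those shown (chr10:5048531-5048830, GRCh38.p14, plus strand). It has no CG pair and so no capitals, as have 4.16% of promoters.
AKR1C3 promoter: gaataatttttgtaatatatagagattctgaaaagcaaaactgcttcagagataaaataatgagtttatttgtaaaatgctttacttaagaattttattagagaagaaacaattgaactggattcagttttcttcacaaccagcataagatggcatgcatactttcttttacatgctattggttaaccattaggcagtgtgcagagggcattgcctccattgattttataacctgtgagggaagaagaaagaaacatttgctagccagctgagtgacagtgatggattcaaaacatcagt

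Other rises started from no detectable signal. TBX15, a T-box transcription factor of the developing skeleton, read -5.98 and -6.32 with DMSO and -1.59 and -1.39 with UNC0638, at least 7-fold higher (adjusted p = 0.00734). SIGLECP3, a lectin pseudogene, went from -4.96 and -5.71 to -1.58 and -1.39, at least 6.99-fold higher. The endosomal RNA sensor TLR7 read -5.27 and -6.29 with DMSO and -1.23 and -2.20 with UNC0638, with spreads near 1 in both groups and at least a 5.98-fold rise (adjusted p = 0.0192). The clotting factor subunit F13A1 was at least 5.44-fold higher, the Rab regulator TBC1D21 at least 5.43-fold and TIMD4, a receptor for dying cells, at least 4.64-fold. ZNF185, a LIM domain protein, was at least 1.93-fold higher and was the 1 gene called among 231 zinc finger genes outside chromosome 19 (0.433%, beside 0.669% of all genes).

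Chemokines and inflammatory cytokines had the highest median of the lists, 0.68, with 3 of 21 called (6 with the replicate number as a block) and 9 past 2-fold. That is 14.3% called higher, 28.6% with the block and 42.9% past 2-fold, beside 0.669, 1.72 and 2.4% of all genes. This list too was chosen with earlier results of these data known. The median depended on the processing: it ran from -0.06 to 0.998 over 12 alternatives and was below 0 with no filter on dim probes. CXCL6, which attracts neutrophils, read -3.64 and -3.72 with DMSO and -1.47 and -1.41 with UNC0638. Replicates lay within 0.08 of each other and the groups 2.24 apart (adjusted p = 0.00508). CXCL10, which attracts T cells, went from -1.05 and -1.66 to 0.68 and 0.46 on 1 of 2 called probes (1.93, adjusted p = 0.0246). IL19, a cytokine of the IL-10 family, rose by 1.82.

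Of 54 genes for IFN-alpha/beta signaling, limma called none higher, beside 0.669% of all genes, and 1 lower (1.85%, beside 0.114%), with a median of -0.02. Past 2-fold higher were 3.7%, beside 2.4% of all genes. IFI6 differed by 0.59, IRF9 by 0.26, IFIT1 by 0.25 and ISG15 by -0.28. The gene called lower was SOCS3, a feedback inhibitor of cytokine receptors, at -2.45 and -2.30 with DMSO and -3.43 and -3.45 with UNC0638 (-1.06, adjusted p = 0.0343). This call depended on the processing. By limma it held with the replicate number as a block (adjusted p = 0.0147). It was lost with normexp background correction (0.289), all 16 arrays (0.376) and only the 4 arrays in the fit (0.101). None of 25 NF-kappaB feedback and AP-1 genes was called, beside 0.783% of all genes. Past 2-fold higher were 8%, the median was -0.04, and the bright members IER2 and ICAM1 differed by -0.23 and -0.66.

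Adhesion and cytoskeleton genes moved both ways, with 2 higher and 1 lower of 33 (2 and 3 with the replicate number as a block). Over all genes 0.669% were called higher and 0.114% lower (1.72 and 0.634% with the block). ITGA7, an integrin chain for laminin, read -1.03 and -0.96 with DMSO and 1.73 and 0.81 with UNC0638. The UNC0638 arrays were 0.92 apart and still well clear of the controls (2.27, adjusted p = 0.0343). The phospholipid binder ANXA1 rose from 2.37 and 2.56 to 4.21 and 4.12 (1.70, adjusted p = 0.0282). The actin bundler FSCN1 fell from -0.37 and -0.58 to -2.10 and -1.89 (-1.52, adjusted p = 0.0246).

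Among called probes, the largest fall was in LBH, a transcription cofactor that was bright in control cells. It read 3.56 and 3.09 with DMSO and 0.44 and 1.04 with UNC0638, with no overlap (-2.59, SE 0.38, adjusted p = 0.0437). Its 2 other probes differed by -3.03 and -2.49 and were not called. TLE2, a Groucho corepressor, went from -1.56 and -1.92 to -3.77 and -4.18 (-2.23, adjusted p = 0.0364). The LIM protein CRIP1 went from 3.71 and 3.53 to 2.41 and 2.32 (-1.25, adjusted p = 0.0286). The phosphatase gene CDC14B fell by 1.68 and its retrocopy CDC14C by 1.72. Whether these 2 probes bind both RNAs was not tested. HGF, a growth factor noticed after the values were seen, had 2 probes called, at -1.47 and -1.29.

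Zinc finger genes of chromosome 19 were the list with the lowest median. It was -0.53 over 186 genes, with 85.5% below 0, 26 past 2-fold lower, none past 2-fold higher and 5 called lower. Past 2-fold lower were thus 14% and called lower 2.69%, beside 0.854 and 0.114% of all genes. This list too was chosen with earlier results of these data known. The quartiles were -0.85 and -0.23. The 231 zinc finger genes of other chromosomes had a median of 0.01, and the 834 other genes of chromosome 19 had -0.09. Both same-numbered pairs of arrays gave it, with medians of -0.55 and -0.49. Genes of the short arm side (60, median -0.53) and of the long arm side (126, median -0.53) had the same median, with 91.7 and 82.5% below 0, and all 5 called were on the long arm side. With the replicate number as a block, 25 of the 186 were called lower (13.4%, beside 0.634%) and none higher. These were 7 of the 60 on the short arm side and 18 of the 126 on the long arm side. Past 2-fold lower were 7 and 19.

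Chromosome 19 held 8 of the 16 genes called lower among its 1020 genes and 4 of the 94 called higher. These are 0.784% called lower and 0.392% called higher, beside 0.114 and 0.669% of all genes. Past 2-fold lower were 4.31% of its genes, beside 0.854% of all genes. ZIK1 was at -2.48 and -3.05 with DMSO and at -4.99 and -5.28, not well above background, with UNC0638, at least 3.08-fold lower (adjusted p = 0.0343). ZNF284 went from -2.03 and -1.60 to -3.80 and -3.65 (-1.91, adjusted p = 0.0179) and ZNF615 from -1.71 and -2.28 to -3.46 and -3.98 (-1.73, adjusted p = 0.0419). ZNF529, brighter at 0.31 and 0.39, reached -0.57 and -0.75. ZNF461 was at least 2.28-fold lower (adjusted p = 0.0428). The last 2 lie at chr19:37035565-37318993 (hg19), picked after the values were seen, where all 28 probes within 300 kb were below 0 (median -0.96) and 14 were past 2-fold lower.

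**Figure D3:**
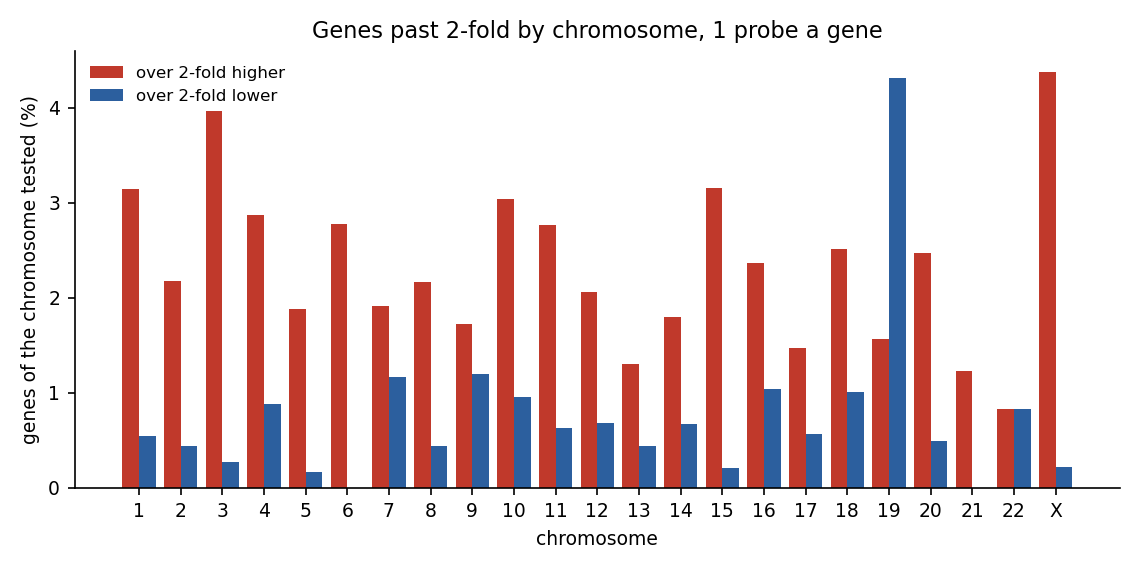
Share of tested genes past 2-fold higher and past 2-fold lower on each chromosome, in percent, for UNC0638 against DMSO. Chromosome 19 has 4.31% of its genes past 2-fold lower.

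CG pairs were counted in the promoters of these genes, and the counts were not tested. Over 165 zinc finger genes of chromosome 19 with a promoter in the table, the median was 21 CG pairs and the lowest 6, beside a median of 14 over all promoters. ZIK1 (chr19:57583895-57584194, GRCh38.p14, plus strand) has 20 and ZNF461 (chr19:36666788-36667087, GRCh38.p14, minus strand) has 22, and 41.2 and 37.6% of promoters hold as many. Both are printed, with CG pairs in capitals, because these genes were not well above background on either UNC0638 array.
ZIK1 promoter: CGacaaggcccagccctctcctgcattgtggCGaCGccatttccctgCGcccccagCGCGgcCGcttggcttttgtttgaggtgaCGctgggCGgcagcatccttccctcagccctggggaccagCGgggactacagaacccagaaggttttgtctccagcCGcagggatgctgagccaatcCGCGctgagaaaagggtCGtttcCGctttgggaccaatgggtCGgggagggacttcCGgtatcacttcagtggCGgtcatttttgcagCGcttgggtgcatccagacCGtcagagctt
ZNF461 promoter: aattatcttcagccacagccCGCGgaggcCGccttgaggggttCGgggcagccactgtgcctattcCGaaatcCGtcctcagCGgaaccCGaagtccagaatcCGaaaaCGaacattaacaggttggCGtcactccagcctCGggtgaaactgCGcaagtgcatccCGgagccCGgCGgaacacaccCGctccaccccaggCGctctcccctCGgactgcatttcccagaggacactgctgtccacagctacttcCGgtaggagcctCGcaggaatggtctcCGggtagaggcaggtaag

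None of the 4 genes of the IRF4-MYC axis was called by limma (median -0.26), beside 0.783% of all genes. A list of this size would rarely hold a call at that share. MYC read 6.90 and 6.87 with DMSO and 6.91 and 6.95 with UNC0638, a difference of 0.05. IRF4 read 2.89 and 2.52 with DMSO and 2.35 and 2.21 with UNC0638, and its difference of -0.43 was not called (adjusted p = 0.528). PRDM1 differed by -0.09. KLF2 read -0.98 and 0.26 with DMSO and -2.53 and -1.18 with UNC0638. Its replicates differed by more than 1 in both groups, and the difference of -1.50 was called only with the replicate number as a block (adjusted p = 0.58 without and 0.0079 with it, 0.00446 to 1 over all alternatives).

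No gene was called by limma among 63 genes of G1/S and DNA replication (median -0.02), 46 of G2/M and mitosis (-0.07), 17 of the BCL2 family (0.01) and 31 of autophagy (-0.04). At the 0.783% called over all genes, lists of this size would hold few calls or none. MCM7 and TK1 differed by -0.12 each, PTTG1 by -0.23 and BIRC5 by 0.01, and BCL2L12, BID, LAMP1 and GABARAP by -0.14 to -0.02. The 41 ATF4 amino acid response genes had 78.0% below 0, beside 52% of all genes, and a median of -0.21, and none was called. ATF4 itself differed by 0.01 and CBS by -0.23. Cholesterol synthesis genes (28, none called, median -0.01) held bright members such as FDPS at -0.15 and DHCR7 at 0.02.

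None of 36 cancer-testis antigen genes was called by limma, although 6 were past 2-fold higher (16.7%, beside 2.4% of all genes) and 4 past 2-fold lower (11.1%, beside 0.854%), with a median of 0.14. The bright CTAG1A and GAGE2B differed by -0.09 and 0.12. The 16 imprinted genes had a median of 0.14 and none called, with GNAS at -0.02 and PHLDA2 at -0.07. Only 3 endogenous retrovirus genes were kept and none was called, among them ERVFRD-2 at -0.26 and ERVMER34-1 at 0.45. Neither 41 LINC RNAs (median -0.08) nor 60 histone genes (median -0.08) held a call, with LINC00493 at 0.10 and HIST1H4C at -0.13. Over all genes 0.783% were called, so each of these lists would hold few calls or none. With the replicate number as a block, 5 cancer-testis antigen genes were called higher (13.9%, beside 1.72% of all genes) and 2 lower (5.56%, beside 0.634%). The block also added 2 NF-kappaB and AP-1 genes, 1 interferon gene, 1 imprinted gene and 1 cholesterol synthesis gene called higher and 1 ATF4 response gene called lower.

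**Figure D4:**
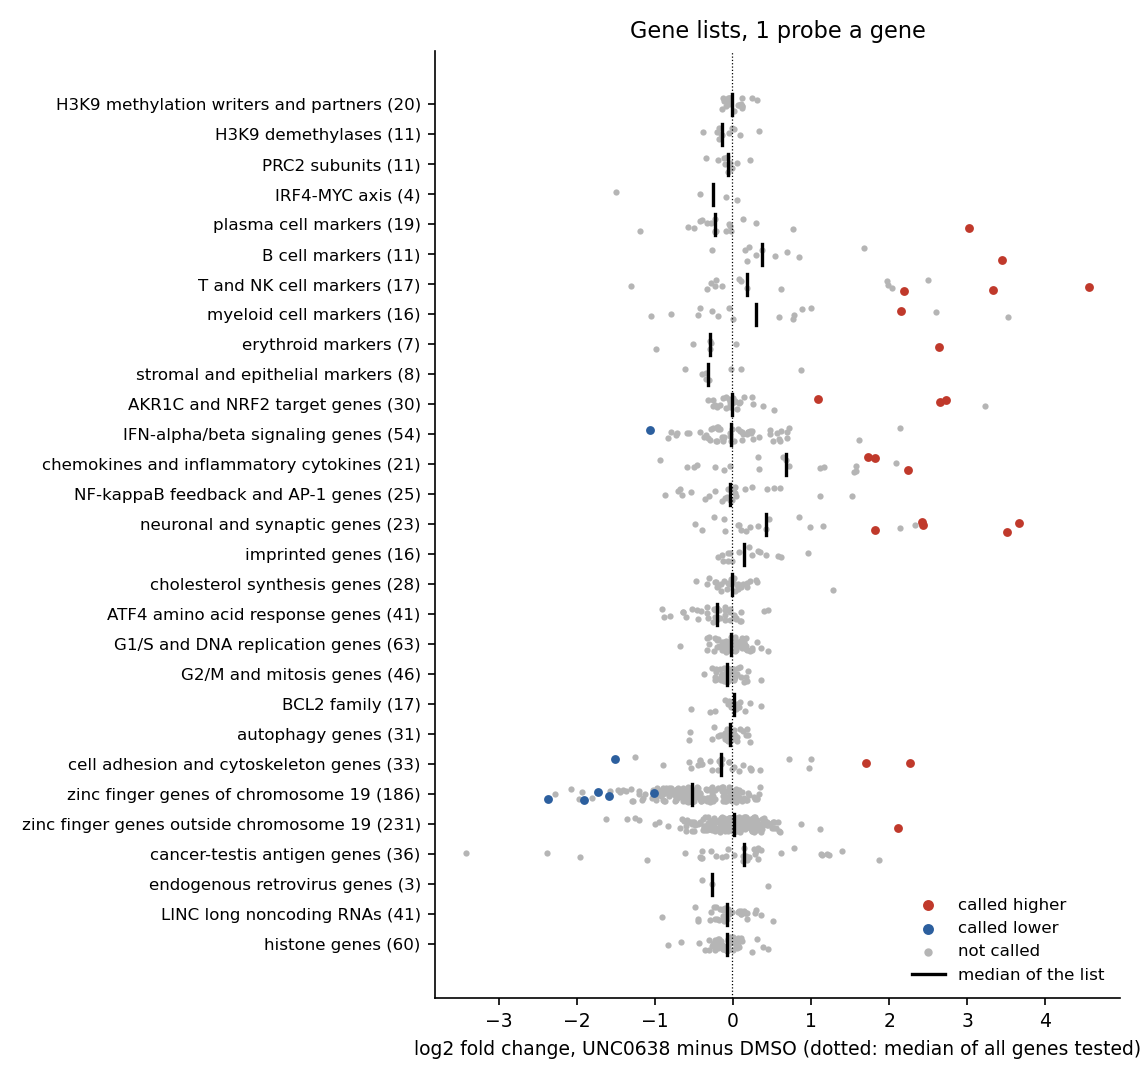
Log2 difference between UNC0638 and DMSO for each gene of each list (points, number of genes in brackets), with called genes in red (higher) and blue (lower) and a bar at the list's median. The zinc finger genes of chromosome 19 have the lowest median, -0.53, and chemokines and inflammatory cytokines the highest, 0.68, although the latter ran from -0.06 to 0.998 over 12 alternatives.

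UNC0638 was also given on top of GSK126 in this line. That difference is between 4 other arrays, but both tests came from 1 fit and share its estimate of spread for each probe. All 134 rises were positive there, where 40.1% of all probes tested were. Of them 112 were called (83.6%), beside 1.09% of all probes, and they made up 46.5% of the 241 rises of that comparison. Of the 22 falls, 19 were negative (86.4%, beside 59.9%) and 11 were called (50%, beside 0.429%), which is 11.6% of its 95 falls. CD3G differed there by 4.46, AKR1C3 by 3.16 and LBH by -3.52, and ZIK1 was at least 4.46-fold lower. LOC401164 and OR1J4, both called lower with UNC0638 alone, were not called there. The chromosome 19 zinc finger genes had a median of -0.51 and all genes of -0.06. IRF4, not called with UNC0638 alone, fell there by 1.44 (adjusted p = 0.0173).

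**Figure D5:**
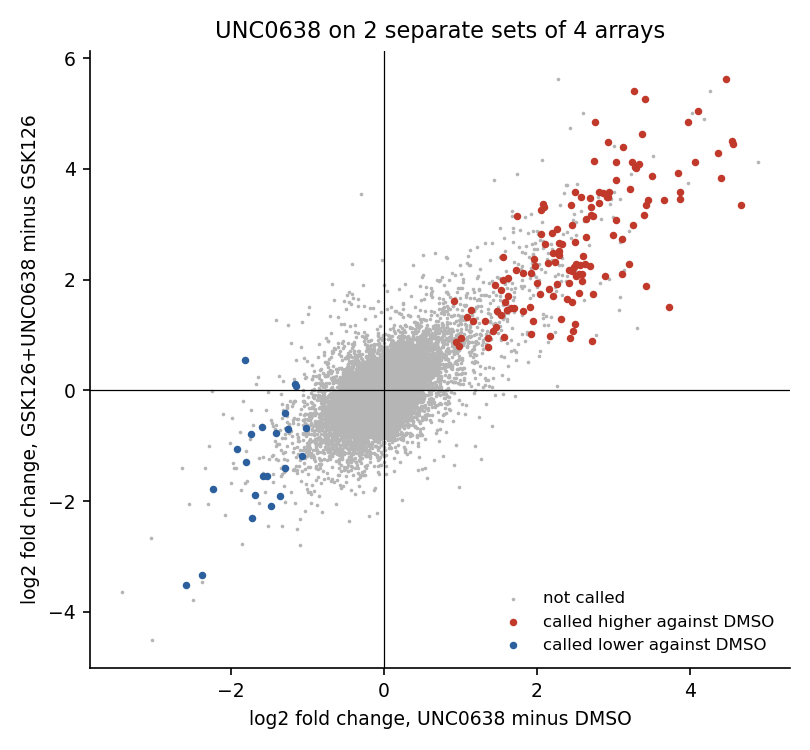
Log2 difference of each probe with UNC0638 added to GSK126 (vertical) against its log2 difference with UNC0638 alone (horizontal), both in RPMI-8226, with called probes of the latter in red (higher) and blue (lower). All 134 rises lie above 0 on the vertical axis.

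GSK126 alone and both inhibitors together were compared with the same DMSO arrays, so their values are given only side by side. With UNC0638, GSK126 and both, CD3G differed from DMSO by 4.56, 1.33 and 5.79, and AKR1C3 by 2.73, -0.07 and 3.08. CD3D differed by 2.19, 2.14 and 4.99. SOCS3 was lower with UNC0638 and higher with the other treatments, at -1.06, 2.11 and 0.93, and LBH gave -2.59, 0.71 and -2.81.

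In MM.1S, far more probes were called with UNC0638, 3214 higher and 4323 lower. That fit has its own estimate of spread, and fewer were called with any 1 of its DMSO or UNC0638 arrays left out. Of the 134 rises, 76 were kept in MM.1S, 71 of these were positive (93.4%, beside 38.5% of probes kept in both lines) and 53 were called (69.7%, beside 10.9%), or 1.65% of the MM.1S rises. Only 9 of the 22 falls were kept there, 6 of them negative (66.7%, beside 61.5%) and 2 called (22.2%, beside 19.9%), or 0.0463% of the MM.1S falls. Among the 85 called probes kept in both lines, the response differed for 32, beside 2.22% of all probes kept in both. These probes were picked on the RPMI-8226 arrays that also enter this difference, so a higher share is built into the choice. SLAMF7, at 3.03 in RPMI-8226, differed by -0.40 in MM.1S, and IL2RG by 0.39. Both were already far brighter in MM.1S with DMSO, SLAMF7 at 6.19 and 6.21 and IL2RG at 1.45 and 1.45. The chromosome 19 zinc finger genes had a median of -0.31 in MM.1S, beside -0.09 over all genes.

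For 24 called genes more than 1 probe was kept. Of their 19 probes that were not called, 17 had the sign of the called probe. Among 53 named genes that were called, CD3G, GLYATL1, LOC100505495 and SLC5A11 were among those called whichever of the 4 arrays was left out.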

How the data were processed

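RNA of RPMI-8226 and MM.1S cells was measured on one-color Agilent arrays, 2 arrays for each of 8 groups (16 arrays). The authors extracted the spot intensities with Agilent Feature Extraction 10.7 and deposited them as background-corrected processed signal on the linear scale. The deposited series table equals these values rounded for 99.9958% of entries. Each array held 62976 spots, 4259 of them controls, and 50599 probes, 34315 of these with a gene symbol. Spots marked as outliers (220 to 358 per array) were left out.

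Log2 intensity minus the log2 75th percentile over non-control spots was averaged where a probe had several spots. The 75th percentile was 299 to 349 on the 4 arrays compared. A probe was kept if both DMSO arrays or both UNC0638 arrays were well above background. The differences were tested across all kept probes with limma 3.58.1 (lmFit and eBayes, R 4.3.3) on all 8 RPMI-8226 arrays, with Benjamini-Hochberg adjustment over all kept probes and a threshold of 0.05. The median standard error of a log2 difference was 0.19. UNC0638 added to GSK126 was tested in the same fit, MM.1S on its own 8 arrays, and the difference between lines on all 16.

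The deviations of same-numbered arrays from their group means correlated at 0.26 to 0.44 in all 6 pairs of groups. Same-numbered RPMI-8226 arrays also shared a slide row, so paired cultures and a shared row cannot be told apart. The main fit had no block, and a fit with the number as a block was 1 of the alternatives. Others changed the scaling, background correction, filter, arrays in the fit, prior variance and arrays left out. One, the block with only the 4 arrays in the fit, was chosen after seeing the data.

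Gene lists cover H3K9 methylation writers and demethylases, PRC2, the IRF4-MYC axis, cell type markers, AKR1C and NRF2 target genes, interferon signaling, chemokines and cytokines, NF-kappaB and AP-1, neuronal genes, imprinted genes, cholesterol synthesis, the ATF4 response, cell cycle, the BCL2 family, autophagy, adhesion, zinc finger genes on and off chromosome 19, cancer-testis antigens, endogenous retroviruses, LINC RNAs and histones. Lists and members were chosen with earlier results of these data known. Lists use 1 probe per gene, the brightest kept. They were not tested as sets.

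Genes are named by a rule set before the test: the 12 largest called rises above background on all 4 arrays, the 10 rises with the largest bounds, the 10 largest falls and every fall to under background, the called members of each list (or its 2 brightest), and the drug targets, IRF4-MYC axis and selected interferon genes. OAS3 was not kept. Items withheld for evaluation are not reported here. XLOC locus identifiers and bare accessions were not treated as symbols. Others are said to be named after the values were seen.

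Promoter sequences came from the RefSeq promoter table (GRCh38.p14) and probe sequences from the array files (hg19). A promoter was found for 64 of 97 called higher and 15 of 20 called lower symbols, too few to compare these groups.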

Additional observations from a re-analysis of the deposited data

Results flagged for a closer look

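For 15 of the named genes, the response to UNC0638 differed between RPMI-8226 and MM.1S by limma on all 16 arrays (adjusted p under 0.05). That difference, in log2 as RPMI-8226 minus MM.1S, flagged them. Cell line and slide cannot be told apart.

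Rises that were larger in RPMI-8226 were SLAMF7 (3.43), IL2RG (3.48), LOC100505495 (2.94), CD3D (2.35), ITGA7 (1.78) and GLYATL1 (0.99). GLYATL1 differed from DMSO in MM.1S too, by 1.83, whereas SLAMF7 gave -0.40 and CD3D -0.16 there. The lines started from unlike levels. With DMSO, SLAMF7 read 6.19 and 6.21 in MM.1S against -3.10 and -2.02 in RPMI-8226. The flagged IL2RG probe read 1.45 and 1.45 against -6.06 and -5.81. CD3D was dim in both lines, at -3.22 and -4.01 in MM.1S and -2.59 and -2.70 in RPMI-8226. The IL2RG value is from a probe not well above background with DMSO in RPMI-8226 and is no exact size. The brighter IL2RG probe gave 2.81 in RPMI-8226 and 0.34 in MM.1S. The falls of ZNF284 (-2.2) and CRIP1 (-1.44) had no counterpart in MM.1S, where these genes gave 0.29 and 0.19.

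The other flagged genes were not called in RPMI-8226. In MM.1S, EPCAM (3.68) was at least 4.2-fold lower and not well above background with UNC0638, so that 3.68 is no exact size either. MYC (1.19) gave -1.15 and ATF4 (0.77) gave -0.77 in MM.1S. The interferon genes IFIT1 (-2.76), ISG15 (-1.3) and IRF9 (-0.87) gave 3.01, 1.01 and 1.13 there, and ICAM1 (-1.55) gave 0.89 there and -0.66 in RPMI-8226.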

How the results depend on the processing

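Against 134 probes called higher and 22 lower, the replicate block gave 343 and 140, and with only the 4 arrays in the fit (chosen after seeing the data) 521 and 284. Without the block, the 4 arrays alone gave 70 and 0, and all 16 arrays 357 and 205. No filter gave 41 and 1, probes above background on all 4 arrays 48 and 12, and an intensity trend 42 lower. Leaving out 1 array gave 20 to 114 higher and 1 to 18 lower; the lone array is then assumed to vary like the other groups.

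Past 2-fold, 514 higher and 206 lower became 111 and 22 with normexp background correction, 1093 and 1012 with no filter, and 188 and 98 with all 4 arrays above background. Both same-numbered pairs gave 119 lower, and leaving out 1 array 260 to 456 lower.

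For UNC0638 added to GSK126 (336), the block gave 960 and leaving out 1 array 82 to 293. For MM.1S (7537), leaving out 1 array gave 3535 to 3948. For the difference between lines (455), the block gave 1406 and leaving out 1 array 119 to 1296.

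Every called probe kept its sign wherever it was kept. Of the 53 called named genes, 53 kept their call with the block, 40 with quantile normalization, 36 with normexp correction, 22 with only 4 arrays, 14 with no filter, and 7 to 19 with 1 of the 4 arrays left out. The median of the chromosome 19 zinc finger genes was -0.60 to -0.36 over 12 settings, that of the neuronal genes 0.09 to 0.75 and that of the chemokines and cytokines -0.06 to 0.998.

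With 2 arrays per group, most differences past 2-fold were not called. Many rises start under background, where size is only a bound. RNA was measured at 1 time and 1 dose, and no histone mark, protein or inactive compound was measured on these arrays. Effects of UNC0638 through G9a and through other targets cannot be told apart. Binding between paralogs was not tested.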
